A study of Mus musculus with 6 samples.

Results

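The receptors described here guide leukocytes along gradients of chemokines and of the lipid sphingosine 1-phosphate (S1P). Their expression was compared between 3 arrays of AID-/- and 3 arrays of AID+/+ acute lymphoblastic leukaemia of Balb/c mice. Both groups share BCR-ABL1, the oncogenic tyrosine kinase that drives the disease, and AID is the cytidine deaminase of immunoglobulin class switching and somatic hypermutation. The labels name the arrays biological replicates without saying whether each came from its own animal, so p-values cover only the spread between these arrays. All probe sets annotated to exactly 1 of Cxcr4, Cxcr5, Cxcr3, Ccr2, Ccr7, Ccr9, S1pr1, S1pr2 and S1pr4 were taken, which gave 17 of 45037 probe sets for the 9 genes. A probe set is a group of short probes that reads 1 or more transcripts, mostly near their 3' end. Ccr9 had 5 probe sets, Ccr2 had 4, S1pr2 had 2 and the other 6 genes had 1 each.

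Chemokine and S1P receptors span the membrane and signal mainly through inhibitory G proteins to the cytoskeleton, so that a cell crawls toward the ligand. In bone marrow, CXCR4 holds B-lineage precursors close to stromal cells that make CXCL12, whereas S1PR1 draws lymphocytes out into blood and lymph, where S1P is high. CXCR5 and CCR7 place mature B and T cells in follicles and T zones, and S1PR2 couples to other G proteins and restrains migration.

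All values are deposited log2 expression values. Differences are AID-/- minus AID+/+ on that scale, with the standard error (SE) of limma, and a probe set was called at an adjusted p under 0.05 over all probe sets. In AID-/- leukaemia S1pr1 rose by 3.03 and Cxcr4 fell by 0.50. None of the other 15 probe sets passed, and with them 7 of the 9 genes had no call. Over all probe sets, 14.6% were called in either direction, 7.24% higher and 7.39% lower, so 2 of 17 is close to that background. The median difference was -0.06 over the 17 probe sets and -0.04 over all probe sets. The groups did not overlap for 4 of the 17, against 32.9% of all probe sets.

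**Figure D1:**
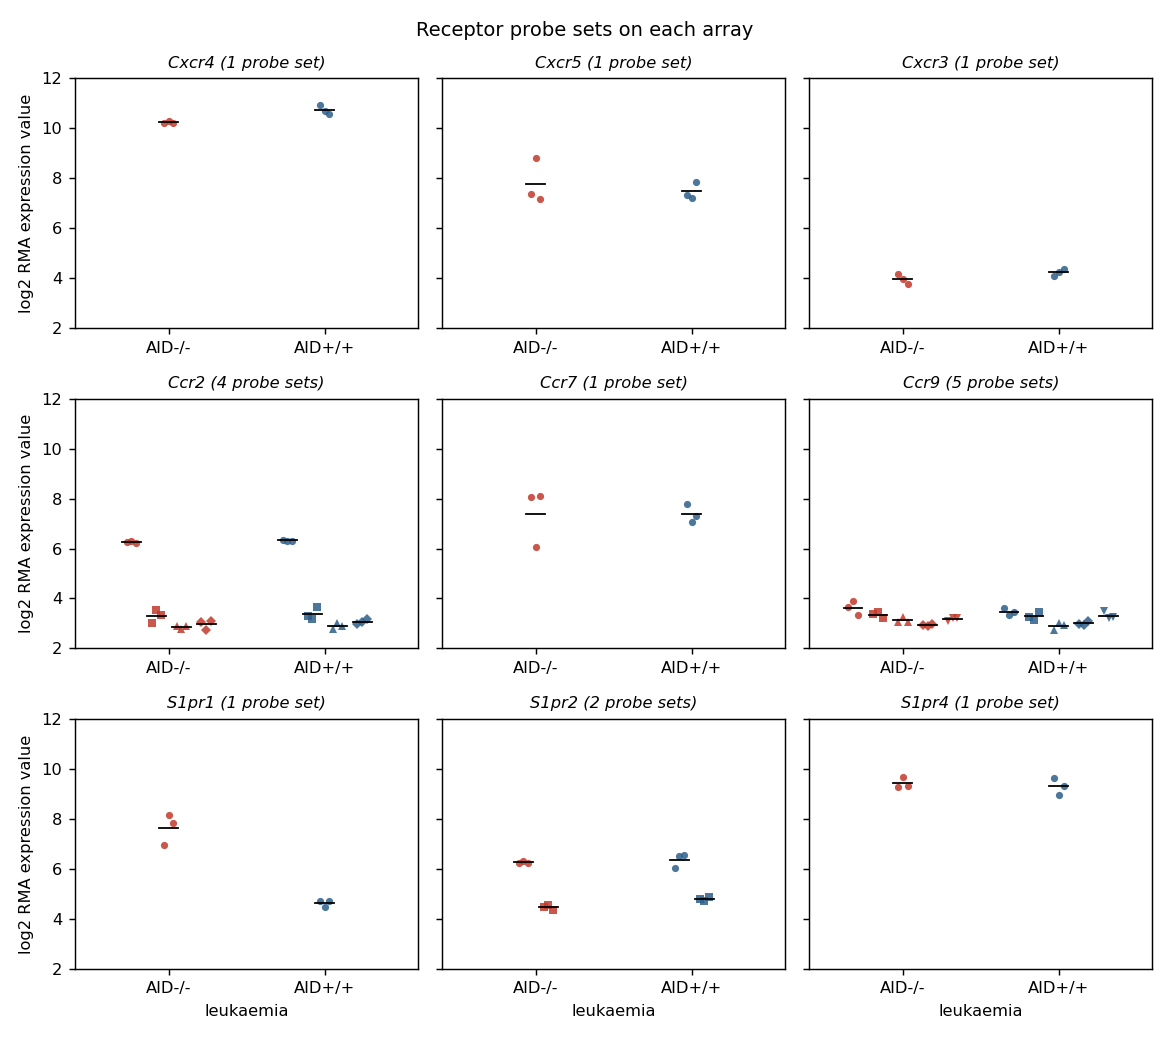
Log2 expression value of every receptor probe set on each array, with 1 panel per gene and AID-/- left of AID+/+ in each. Points are arrays, marker shapes are probe sets of the same gene and black lines are group means (n = 3 each). S1pr1 lies between 6.97 and 8.15 in AID-/- and between 4.47 and 4.72 in AID+/+ leukaemia, while the AID-/- arrays of Ccr7 and Cxcr5 are widely spread.

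S1pr1 encodes the receptor that lymphocytes use to leave the marrow, the thymus and lymph nodes. It was at 6.97, 8.15 and 7.86 on the AID-/- arrays, against 4.72, 4.47 and 4.70 on the AID+/+ arrays. Every AID-/- array lay above every AID+/+ array, and AID-/- replicate 1 was the lowest of its group. The AID-/- mean was 7.66 ± 0.61 and the AID+/+ mean was 4.63 ± 0.14 (SD, n = 3 each). S1pr1 thus rose by 3.03 (SE 0.26), or 8.17-fold (limma adjusted p = 0.000218). Its 95% interval was 2.42 to 3.64. With any 1 array left out the difference stayed between 2.78 and 3.37, and the highest adjusted p was 0.00224. S1pr1 had 1 probe set, so no second reading of the transcript bears on this value. The AID+/+ mean lay below the median probe set mean of 4.89, and without detection calls the fold is approximate.

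Cxcr4 encodes the CXCL12 receptor. Its probe set read 10.22, 10.29 and 10.20 on the AID-/- arrays, against 10.92, 10.70 and 10.59 on the AID+/+ arrays. The AID-/- arrays were all lower and lay within 0.09 of each other, whereas the AID+/+ arrays spread over 0.33. The AID-/- mean was 10.23 ± 0.05 and the AID+/+ mean was 10.73 ± 0.17 (SD, n = 3 each). Cxcr4 fell by 0.50 (SE 0.11, limma adjusted p = 0.0159), to 0.708 of the AID+/+ level on a linear scale, with a 95% interval of -0.74 to -0.25. The call was lost without AID-/- replicate 3 (limma adjusted p = 0.0555), where the difference was -0.48, and in an ordinary linear model without variance moderation (adjusted p = 0.0782).

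Neither S1pr2 nor S1pr4 passed the test. S1pr2 was read by 2 probe sets. The dimmer was at 4.48, 4.55 and 4.36 on the AID-/- arrays, against 4.80, 4.70 and 4.88 on the AID+/+ arrays. These groups did not overlap, and the difference of -0.33 (SE 0.10) missed the threshold (limma adjusted p = 0.0599). It was called only when arrays were weighted by quality, among the settings tried (adjusted p = 0.0417). The brighter was at 6.26, 6.31 and 6.22 on the AID-/- arrays, against 6.04, 6.52 and 6.56 on the AID+/+ arrays. There the AID-/- values fell inside the AID+/+ range, and the difference was -0.11 (SE 0.14, limma adjusted p = 0.689).

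S1pr4 encodes an S1P receptor found mainly on haematopoietic cells. It was at 9.28, 9.69 and 9.33 on the AID-/- arrays, against 9.64, 8.97 and 9.32 on the AID+/+ arrays. The groups overlapped, and the difference was 0.12 (SE 0.18, limma adjusted p = 0.733). Its 95% interval of -0.29 to 0.54 leaves out a difference as large as that of S1pr1.

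The 250 bases before the annotated start of Cxcr4 and of S1pr2 are shown. They were chosen because each gene had a probe set that was lower on all AID-/- arrays than on any AID+/+ array. That probe set of S1pr2 was not called, and at the brighter S1pr2 probe set the groups overlapped. CACCC boxes are marked because KLF2, whose gene is given with the receptor regulators, binds them. Whether KLF2 acts on either gene was not tested. Sequences are from RefSeq, build GRCm38.p6, on the gene's own strand (minus for both genes). The 5-letter box CACCC is in capitals, or GGGTG where it lies on the opposite strand.
Cxcr4 (chr1:128592300-128592549): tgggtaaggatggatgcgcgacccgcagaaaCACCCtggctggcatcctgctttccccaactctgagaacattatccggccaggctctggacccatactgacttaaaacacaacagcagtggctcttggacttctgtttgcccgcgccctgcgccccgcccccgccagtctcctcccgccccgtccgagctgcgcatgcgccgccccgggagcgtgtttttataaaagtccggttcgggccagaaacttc
S1pr2 (chr9:20976794-20977043): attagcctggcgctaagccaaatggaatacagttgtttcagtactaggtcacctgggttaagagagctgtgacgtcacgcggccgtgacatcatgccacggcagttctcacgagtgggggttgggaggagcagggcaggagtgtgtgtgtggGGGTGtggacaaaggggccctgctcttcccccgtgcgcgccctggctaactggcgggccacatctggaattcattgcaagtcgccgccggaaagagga

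RefSeq promoters were matched for 6 of the 9 genes; S1pr1, Cxcr5 and Ccr7 were not matched. CACCC, searched on both strands, was present before the start of Cxcr4, S1pr2, Ccr9 and S1pr4, or 4 of 6, and in 52.0% of all 32851 promoter windows of that length. The match began 219 bases before the start in Cxcr4 and 98 bases before it in S1pr2. The FOXO core GTAAACA, also searched on both strands, was present in 0 of the 6 and in 3.17% of all windows. These matches describe letters and not bound sites.

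**Figure D2:**
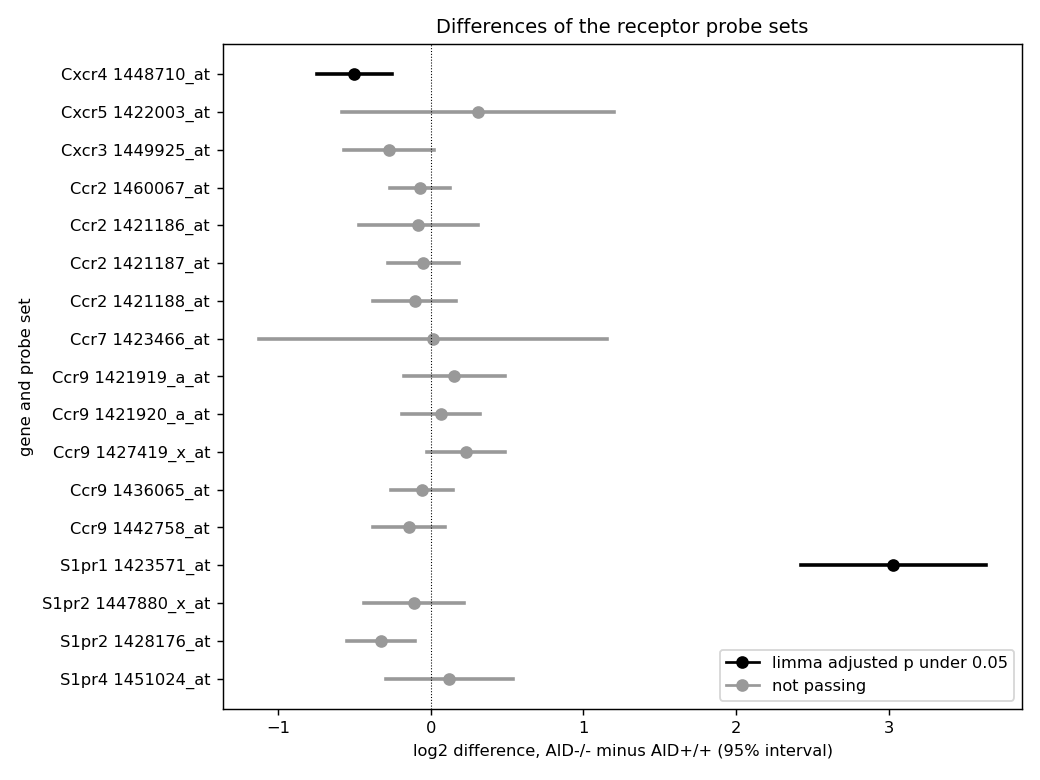
Log2 difference, AID-/- minus AID+/+, of each of the 17 receptor probe sets on the x axis, with its 95% interval from limma, unadjusted for the number of probe sets. Black marks an adjusted p under 0.05. S1pr1 stands at 3.03 and Cxcr4 at -0.50, and the intervals of the 15 others reach from -1.12 to 1.20.

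Ccr7 and Cxcr5, the receptors that place cells in lymphoid tissue, differed more among the AID-/- arrays than between the groups. Ccr7 was at 8.05, 6.04 and 8.09 on the AID-/- arrays, against 7.77, 7.08 and 7.29 on the AID+/+ arrays. AID-/- replicate 2 was the lowest of all 6 arrays, and the other two AID-/- arrays were the highest. The AID-/- mean was 7.40 ± 1.17 and the AID+/+ mean was 7.38 ± 0.35 (SD, n = 3 each), with a difference of 0.02 (SE 0.50, limma adjusted p = 0.989) and a 95% interval of -1.12 to 1.16. Without AID-/- replicate 2 the difference was 0.69 and did not pass (limma adjusted p = 0.0554).

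Cxcr5 showed its extreme on the same array and in the opposite direction. It was at 7.38, 8.80 and 7.17 on the AID-/- arrays, against 7.34, 7.22 and 7.85 on the AID+/+ arrays. AID-/- replicate 2 was the highest of the 6 arrays, and the other two AID-/- arrays lay close to the AID+/+ ones. The difference was 0.31 (SE 0.39, limma adjusted p = 0.676), with a 95% interval of -0.58 to 1.20, and it was -0.20 without AID-/- replicate 2 (adjusted p = 0.591). The interval of Cxcr5 takes in a rise of 1 log2 unit, and that of Ccr7 a change of 1 either way.

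**Figure D3:**
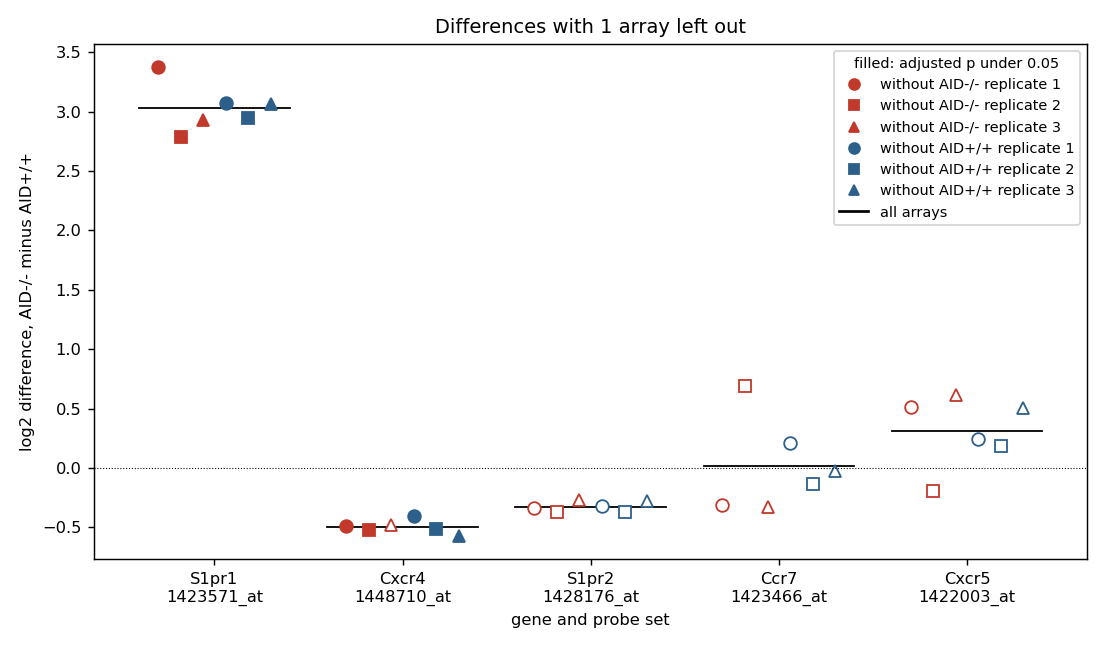
Log2 difference, AID-/- minus AID+/+, of 5 receptor probe sets with each array left out in turn; the line is the difference with all 6 arrays, and filled points have an adjusted p under 0.05. S1pr1 is filled in every fit and Cxcr4 in all but the one without AID-/- replicate 3, while Ccr7 and Cxcr5 cross 0.

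None of the probe sets of the inflammatory and gut-homing receptors passed. Cxcr3, the receptor for interferon-induced chemokines, was at 4.17, 3.96 and 3.75 on the AID-/- arrays, against 4.09, 4.25 and 4.36 on the AID+/+ arrays. The groups overlapped at 1 AID-/- array, and the difference was -0.27 (SE 0.13, limma adjusted p = 0.220). Cxcr3 lies on chromosome X, and sex-linked transcripts separated the groups, as given below.

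Ccr2, which recruits monocytes, had its brightest probe set at 6.25, 6.32 and 6.20 on the AID-/- arrays, against 6.36, 6.31 and 6.30 on the AID+/+ arrays. Its other 3 probe sets read 2.75 to 3.54 in AID-/- and 2.77 to 3.67 in AID+/+ leukaemia. The 4 differences ran from -0.10 to -0.05, and the lowest adjusted p was 0.644. All 4 lay on the same side of 0, and each 95% interval included 0.

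Ccr9, the receptor for the gut and thymus chemokine CCL25, read 2.92 to 3.88 in AID-/- and 2.73 to 3.60 in AID+/+ leukaemia over its 5 probe sets. Its differences ran from -0.14 to 0.23. The groups did not overlap at 1 of the 5, which was at 3.06, 3.26 and 3.07 on the AID-/- arrays and at 2.73, 3.01 and 2.95 on the AID+/+ arrays (limma adjusted p = 0.224). Values this low hold little order, since 1% of all values in the table lay under 2.53 and no detection calls were used.

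The wider pathway was described with 110 genes in 5 lists, of which 103 were measured, with 1 probe set a gene (the brightest) and p-values adjusted over 18193 genes. Of these 103, 13 were higher and 7 lower, together 19.4%, and 83 did not pass. Over all genes 18.5% were called, 10.1% higher and 8.42% lower. The median difference was -0.02 in the lists and -0.03 over all genes. In an ordinary linear model without variance moderation, 6 of the 20 kept their calls: S1pr3, Foxo1, Gnai1, Gng2, Pik3r6 and Rhoh. The other 14, named below, had adjusted p of 0.0503 to 0.163 there.

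Ligand genes were mostly not called, with 1 of 16 higher, 0 lower and 15 not passing, and a median of -0.04. Cxcl12, the CXCR4 ligand, averaged 4.35 ± 0.06 on the AID-/- arrays and 4.49 ± 0.20 on the AID+/+ arrays (SD, n = 3; limma adjusted p = 0.459). Ccl25 was higher by 0.42 (SE 0.11, limma adjusted p = 0.0331). Its other probe set differed by -0.48 (limma adjusted p = 0.0507), the mean of both differed by -0.03, and the call held in 1 of 6 fits with an array left out. Cxcl10, a CXCR3 ligand, and Ccl3 differed by 0.13 and -0.19 (adjusted p of 0.291 and 0.334).

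The list of other and atypical receptors held 1 higher and 2 lower genes and 19 of 22 that did not pass, with a median of -0.10. S1pr3, a further S1P receptor, was at 6.54, 7.36 and 7.72 on the AID-/- arrays, against 3.42, 3.43 and 3.11 on the AID+/+ arrays. The groups were far apart, and AID-/- replicate 1 was the lowest of its group, as for S1pr1. The difference was 3.89 (SE 0.27, limma adjusted p = 7.57e-05), while its other 2 probe sets differed by 1.32 and 0.15. The AID+/+ readings of S1pr3 lay near the bottom of the measured range, so the size of this difference is approximate. S1pr5, named after its values were seen, differed by 0.10 without passing.

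Ccr6, the CCL20 receptor of mature and memory B cells, was at 5.14, 4.56 and 5.39 on the AID-/- arrays, against 7.78, 7.02 and 6.83 on the AID+/+ arrays. All AID-/- arrays were lower, and Ccr6 fell by 2.18 (SE 0.28, limma adjusted p = 0.00167). P2ry10, an X-linked receptor for lysophospholipids, fell by 1.56 (SE 0.38, limma adjusted p = 0.0257); it did not pass when an AID+/+ array was left out, whichever it was (adjusted p up to 0.0970). Gpr183, the oxysterol receptor EBI2, differed by -0.19 (adjusted p = 0.203).

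S1P metabolism and export held 3 higher and 0 lower genes, with 13 of 16 not passing and a median of 0.04. Acer3, an alkaline ceramidase, was higher by 1.43 (SE 0.21), at 1 of its 4 probe sets and with AID+/+ arrays near the bottom of the measured range. Sgpp1, the phosphatase that turns S1P back into sphingosine, was higher by 0.89 (SE 0.19, limma adjusted p = 0.0158) and at all 3 probe sets. The call on Sgpp1 was lost without AID+/+ replicate 1 (adjusted p = 0.0568). Plpp1, a lipid phosphate phosphatase, was higher by 0.93 (SE 0.24, limma adjusted p = 0.0286), a call that held in 1 of 6 fits with an array left out. Plpp2 differed by -0.39 (adjusted p = 0.0564).

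Receptor regulators held 3 higher and 2 lower genes, with 13 of 18 not passing and a median of 0.14. Foxo1, a factor that acts upstream of Klf2, S1pr1 and Ccr7 in mouse T cells, was higher by 1.07 (SE 0.14, limma adjusted p = 0.00175) and at 3 of its 4 probe sets. Rgs18 fell by 1.33 (SE 0.19), whereas Rgs16 and Rgs3 were higher by 0.79 (SE 0.13) and 0.57 (SE 0.11). These 3 genes encode proteins that switch G proteins off. Rgs16 was called at 2 of its 3 probe sets, which gave differences of 0.79 to 3.12. Rgs3 was called at 2 of its 4, with differences of 0.06 to 1.23.

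Klf2 and Cd69, both named after their values were seen, are the best known regulators of S1PR1 in lymphocytes: KLF2 activates S1pr1 transcription in mouse T cells, and CD69 pulls the receptor off the surface. Klf2 was at 7.37, 5.53 and 7.37 on the AID-/- arrays, against 9.34, 8.80 and 9.02 on the AID+/+ arrays. It fell by 2.30 (SE 0.46, limma adjusted p = 0.0108; adjusted p = 0.114 without moderation). AID-/- replicate 2, the lowest in Klf2, was the highest in S1pr1. AID-/- replicates 1 and 3 were both at 7.37 in Klf2 but at 6.97 and 7.86 in S1pr1. Klf2 and S1pr1 differed in opposite directions between the groups, and a link between them was not tested. Cd69 was at 8.22, 10.34 and 9.87 on the AID-/- arrays, against 8.24, 8.65 and 8.95 on the AID+/+ arrays. Those groups overlapped through AID-/- replicate 1 (difference 0.87, limma adjusted p = 0.283), and without that array the difference was 1.49 (adjusted p = 0.00425). Cd69 was called in only that 1 of 6 fits with an array left out, and their differences ran from 0.44 to 1.49.

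**Figure D4:**
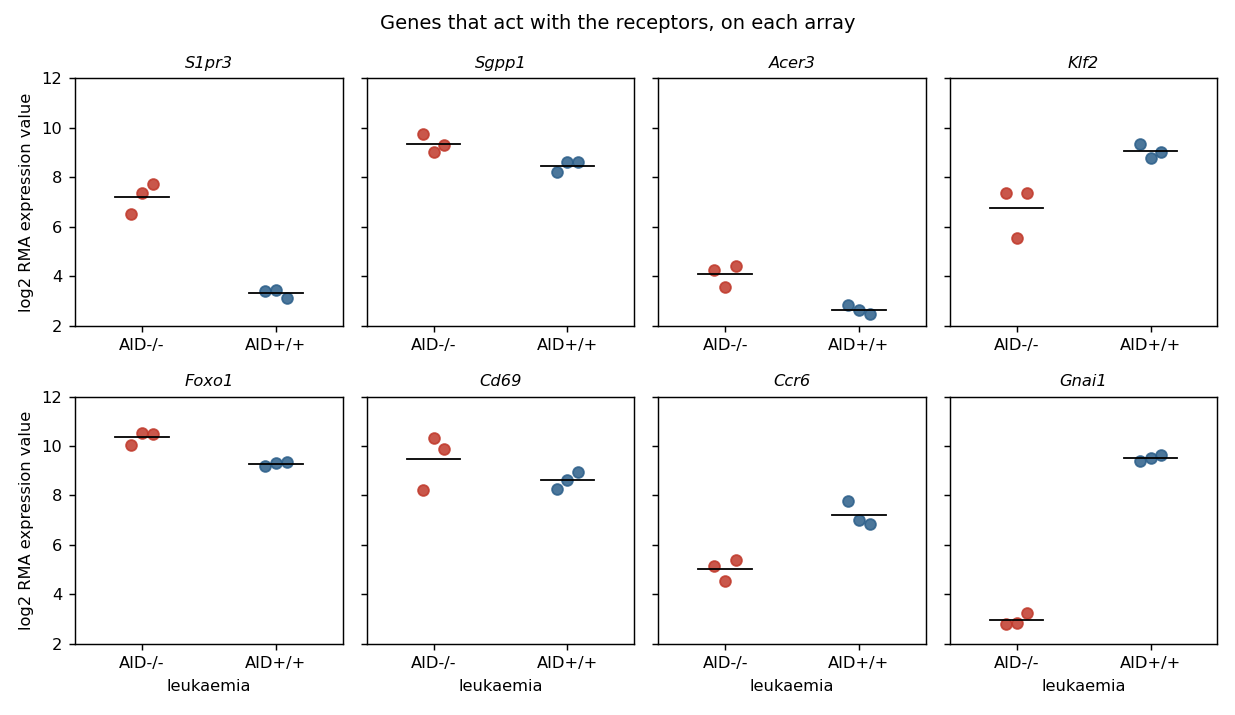
Log2 expression value on each array of 8 genes from the pathway lists, with AID-/- left of AID+/+ and black lines at group means (n = 3 each). S1pr3 and Foxo1 are higher on all AID-/- arrays, Klf2, Ccr6 and Gnai1 are lower on all of them, and the groups of Cd69 overlap.

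Downstream signalling held 5 higher and 3 lower genes, with 23 of 31 not passing and a median of 0.14. Gnai1, an inhibitory G protein alpha subunit, averaged 2.96 ± 0.25 on the AID-/- arrays and 9.52 ± 0.12 on the AID+/+ arrays (SD, n = 3 each), and fell by 6.56 (SE 0.14). The AID-/- readings of Gnai1 lay near the bottom of the measured range, so the size of this fall is approximate. The subunits Gnai2 and Gnai3, through which these receptors also signal, differed by -0.05 and 0.28 without passing; both were named after their values were seen. Gng2, a gamma subunit, was higher by 1.26 (SE 0.09), but at 1 of its 4 probe sets. Rhoh, a GTPase of haematopoietic cells, and Pik3r6, a regulatory subunit of the G protein-activated PI3-kinase, were higher by 1.12 (SE 0.12) and 0.87 (SE 0.12). The other called genes, named after their values were seen, were Cdc42, Coro1a, Lsp1 and Ptk2b. Ptk2b, the kinase PYK2, fell by 1.24 (SE 0.18). The calls on Cdc42, Coro1a and Lsp1 held in 5, 4 and 1 of 6 fits with an array left out. Cdc42 was called at 1 of its 4 probe sets, and their mean differed by 0.13 (limma adjusted p = 0.346).

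**Figure D5:**
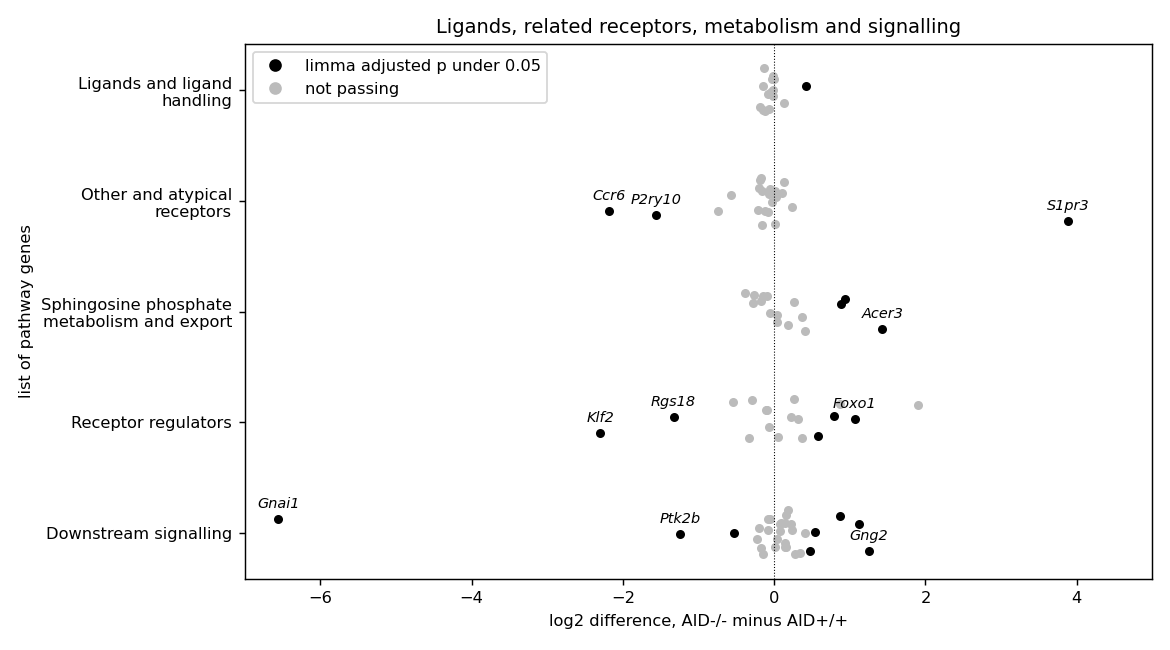
Log2 difference, AID-/- minus AID+/+, of 103 pathway genes in 5 lists, 1 point per gene, with black for an adjusted p under 0.05. Gnai1 at -6.56 and S1pr3 at 3.89 lie farthest out, with approximate sizes because 1 group of each reads near the bottom of the measured range, and 83 of the 103 did not pass.

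The genes most like S1pr1 over the 6 arrays were Pla2g5, Ninl and Phactr2, with Pearson's r of 1.00, 0.999 and 0.998. Those most like Cxcr4 were Mei1, Lats2 and 5730420D15Rik, with r of 0.999, 0.995 and 0.994. The arrays form 2 separate groups, which raises r for genes that differ in the same direction, and 781 genes had r above 0.95 with S1pr1 and 206 with Cxcr4.

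B-lineage markers were high in both groups: the 10 measured genes averaged 7.55 to 13.53 in AID-/- and 7.92 to 13.25 in AID+/+ leukaemia. Only 1 was called, Ptprc, which was lower in AID-/- leukaemia (difference -0.37, limma adjusted p = 0.0305). The summed linear level of the 10 genes was 47249 to 52155 on the AID-/- arrays and 45042 to 48522 on the AID+/+ arrays. S1pr1, Ccr7, Cxcr3 and Ccr9 are also T cell genes. The summed T cell marker level was 257 to 520 on the AID-/- arrays and 835 to 927 on the AID+/+ arrays, led by Lat, at 7.18 in AID-/- and 9.38 in AID+/+ leukaemia. The T cell receptor component genes Cd3d, Cd3e and Cd3g were at 4.51, 5.64 and 2.80 in AID-/- and at 4.63, 5.69 and 2.85 in AID+/+ leukaemia, and none of them passed. Of 10 T cell markers 2 were lower, Lat and Cd28, and 0 higher, while 18.5% of all genes were called in either direction. Cd28 was low in both groups, at 3.17 in AID-/- and 3.94 in AID+/+ leukaemia. Of the 10 genes, 6 averaged below the median probe set.

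Myeloid markers summed to 243 to 309 on the AID-/- arrays and 290.1 to 379 on the AID+/+ arrays, with Lyz2 higher and Fcgr1 lower among 11. The sums for NK cells were 74.6 to 88.0 on the AID-/- arrays and 88.5 to 113 on the AID+/+ arrays, with 1 of 5 genes lower. Below the median probe set lay 8 of 11 myeloid, 4 of 5 NK, 4 of 4 erythroid and 5 of 7 stromal genes. Without detection calls, sums over such low readings set no level of a cell type. Plasmacytoid dendritic cell, erythroid and stromal markers had 0 called of 5, 4 and 7. Their sums were 1885 to 2742, 65.3 to 77.2 and 210.1 to 283 on the AID-/- arrays, against 1969.9 to 2683, 64.9 to 75.8 and 215 to 247 on the AID+/+ arrays. The first of these sums was led by Spib, which B-lineage cells also express, at 11.01 in AID-/- and 10.85 in AID+/+ leukaemia, while the sialic acid-binding lectin Siglech averaged 5.06 on the AID-/- arrays and 4.87 on the AID+/+ arrays. The part of other cell types in the receptor values was not tested beyond these levels, and fewer cells of a type cannot be told apart from less RNA per cell. Xist averaged 5.30 on the AID-/- arrays and 12.01 on the AID+/+ arrays, and the Y-linked Kdm5d averaged 7.66 on the AID-/- arrays and 2.58 on the AID+/+ arrays. Uty, also Y-linked, averaged 6.24 on the AID-/- arrays and 2.66 on the AID+/+ arrays. Y-linked Eif2s3y did not pass the test, at 8.85, 3.67 and 2.71 on the AID-/- arrays, against 2.51, 2.54 and 2.59 on the AID+/+ arrays (limma adjusted p = 0.264). Since Xist, Kdm5d and Uty separated the groups, the animals' sex cannot be told apart from the genotype here.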

How the data were processed

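Expression was measured on 6 Affymetrix arrays, 3 AID-/- and 3 AID+/+ by their titles. The authors deposited log2 expression values, 1 column per array; per the submitters' processing notes RMA and Partek were used, with no versions or order of steps. The log2 scale was read from the range of values, 2.15 to 14.33. Array medians lay between 4.85 and 4.90. Depth does not apply to arrays, and their number limits the precision.

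Of 45101 rows, 64 array controls were left out. Platform annotation named 1 gene for 34945 probe sets, several for 932 and none for 9160; symbols were updated by Entrez identifier for 34741. Group was the single term of a two-sided moderated linear model (limma 3.58.1, R 4.3.3; lmFit, then eBayes) over every probe set, with Benjamini-Hochberg adjustment. Tested on simulated data for this comparison with 45037 probe sets, it recovered 98.5% of changes of 2 and 67.2% of changes of 1 on the log2 scale, and 8.96% of changes of 0.5. The simulation changed a far smaller share of probe sets than was called in these data. The adjusted threshold was therefore stricter there, and these rates do not give the recovery in these data.

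The members and lists were chosen with earlier results of these data known. Named genes were all members and up to 4 genes with the smallest p in each list; others are marked. Same-numbered replicates did not deviate together (correlations of -0.05, -0.07 and 0.03), so the fit with a replicate block was kept as an alternative. The rest were array weights, an intensity trend, no moderation, quantile normalization, centring on array medians, leaving out dim probe sets or each array, averaged probe sets and a threshold of 0.01.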

Additional observations from a re-analysis of the deposited data

How the results depend on the processing

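The 2 receptor calls, S1pr1 and Cxcr4, were counted again under each alternative. The count was 2 with an intensity trend, quantile normalization, arrays centred on their medians and dim probe sets left out, and 3 with array weights. It was 1 at a threshold of 0.01 and 1 without variance moderation, and 1 to 2 with an array left out. The pathway count of 20 genes became 12 at a threshold of 0.01 and 8 without moderation, and ran from 14 to 22 with an array left out. Of the 8 called without moderation, 6 were among the 20. With the replicate block the counts were 2 and 19, so the block changed neither by over 1.5 times; the call on Lsp1 was lost with it (adjusted p = 0.0947). Over all probe sets, 6589 calls became 2363 without moderation and 4307 without AID+/+ replicate 3.

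Directions turned in fits without 1 array for probe sets that were never called. Their differences ran from -0.33 to 0.69 for Ccr7, -0.20 to 0.62 for Cxcr5 and -0.048 to 0.29 for S1pr4. At the 3 dim Ccr2 probe sets they ran from -0.20 to 0.065, from -0.12 to 0.016 and from -0.17 to 0.0026. The cause was not tested. Signal over background is unknown without detection calls, so the low values of Ccr9, Cxcr3 and the 3 dim Ccr2 probe sets set no level.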
